A study of Mus musculus with 6 samples.

Results

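The genes described here encode the chains of collagens, the trimeric proteins that form the fibrils, filaments and sheets of the extracellular matrix. Members were all rows of the deposited array table whose gene symbol reads Col, a number, the letter a and a number, with nothing after it. A gene with several probe sets (groups of probes summarised as 1 value) was to be read from its brightest, but each of the 42 genes found had 1 probe set. They stand among 19505 named genes on the array. Of 44 chains listed for mouse, Col7a1 and Col12a1 are not analysed here.

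Gene expression was measured on 6 Affymetrix arrays from tissue labelled liver of C57BL/6J mice, 3 arrays of H-Exo recipients and 3 of L-Exo recipients. H-Exo are exosomes, small membrane vesicles, isolated from feces of mice kept on a high-fat diet (HFD) for 12 months, and L-Exo are those of age- and sex-matched mice on regular chow. Recipients of both kinds were themselves on HFD and were gavaged daily with 2000000000 exosomes for 14 days. The study's methods describe its mice as males of 8 to 12 weeks. The arrays asked which genes differ between recipients of H-Exo and L-Exo. No source used here states that the arrays of a group came from different mice, so the p-values below cover only the spread between arrays, which may be technical.

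A collagen molecule is made of α chains, each from its own gene, wound into a triple helix. Fibril-forming types I and III give tissue its tensile strength, and in the liver and gut they are made mainly by fibroblasts, hepatic stellate cells and smooth muscle cells. Type IV builds the network of basement membranes, type VI forms beaded filaments around cells, and the fibril-associated collagens (FACIT) coat the fibrils of other types. Chains are hydroxylated and folded in the endoplasmic reticulum, trimmed after secretion and cross-linked by lysyl oxidases.

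The promoters of 34 of the 42 genes were found in the RefSeq table for GRCm38.p6, and 4 are printed because the values below turn on type VI and Col3a1. Each run is the 250 bases before the gene's most upstream start, 5′ to 3′ on the gene's strand. Capitals mark the TATA box (letters TATAAA), the box spelled CCAAT, the GC box (letters GGGCGG) and the run GAGGGAG, on either strand and with overlaps allowed. The first is Col6a1, chr10:76726045-76726294, minus strand, then Col6a2, chr10:76623631-76623880, minus strand, Col6a3, chr1:90843972-90844221, minus strand, and Col3a1, chr1:45311288-45311537, plus strand.
Col6a1: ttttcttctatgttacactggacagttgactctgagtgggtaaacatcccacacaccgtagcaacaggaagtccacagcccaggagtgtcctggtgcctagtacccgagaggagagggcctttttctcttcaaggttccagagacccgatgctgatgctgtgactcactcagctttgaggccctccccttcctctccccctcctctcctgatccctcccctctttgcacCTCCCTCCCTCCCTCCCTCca
Col6a2: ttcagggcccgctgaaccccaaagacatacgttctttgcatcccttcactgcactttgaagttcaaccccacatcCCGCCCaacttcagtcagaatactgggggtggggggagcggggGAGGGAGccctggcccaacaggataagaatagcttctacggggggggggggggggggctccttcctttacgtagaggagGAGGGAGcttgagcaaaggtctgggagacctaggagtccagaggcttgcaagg
Col6a3: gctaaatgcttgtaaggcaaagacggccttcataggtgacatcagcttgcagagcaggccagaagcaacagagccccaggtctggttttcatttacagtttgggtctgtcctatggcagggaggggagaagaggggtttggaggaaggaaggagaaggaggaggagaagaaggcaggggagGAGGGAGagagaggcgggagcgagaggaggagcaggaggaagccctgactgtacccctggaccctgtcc
Col3a1: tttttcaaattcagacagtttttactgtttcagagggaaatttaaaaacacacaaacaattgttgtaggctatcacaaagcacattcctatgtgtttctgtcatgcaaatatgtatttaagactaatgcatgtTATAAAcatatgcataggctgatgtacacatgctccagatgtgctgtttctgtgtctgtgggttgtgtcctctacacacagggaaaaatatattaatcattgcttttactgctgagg
The 3 type VI promoters hold 56%, 59.2% and 57.2% G and C, and that of Col3a1 holds 35.2%. GAGGGAG, which was searched for after these type VI sequences had been read, occurs 4 times in Col6a1, 2 times in Col6a2 and 1 time in Col6a3, and not in the Col3a1 window. It was found in 12 of the 34 collagen promoters (35.3%) and in 11.5% of all 27025 promoters of that length. The 12 include the 3 type VI promoters that it was picked from, so these shares are no independent comparison. GGGCGG was found in 20 of 34 (58.8%) against 33% of all promoters, CCAAT in 11 (32.4%) against 34.5%, and TATAAA in 5 (14.7%) against 13%. A match describes letters only, and nothing is read from it about a factor.

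Collagen signal was near the level of the array's negative controls. These are probes with no target, and a gene was counted as above them where its log2 value exceeded the 95th percentile of the 5222 negative controls on that array. None of the 42 chains was above them on all 6 arrays, 4 were on at least 1 array (9.52%), and 38 were on none. Of all named genes, 19.1% were above them on all 6 arrays and 30.9% on at least 1. The 4 chains were Col3a1, Col1a1, Col6a1 and Col6a2. All 4 passed on H-Exo replicate 1 and Col3a1 also on H-Exo replicate 2, while no chain passed on H-Exo replicate 3 or on any L-Exo array. The other 38 chains had log2 values of 3.33 to 8.23, with 2.37% to 94.6% of the negative controls of the array below them. On all 6 arrays 15 chains lay below the median of the negative controls and 9 above it. A difference of a chain below the controls gives no reliable fold.

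**Figure D1:**
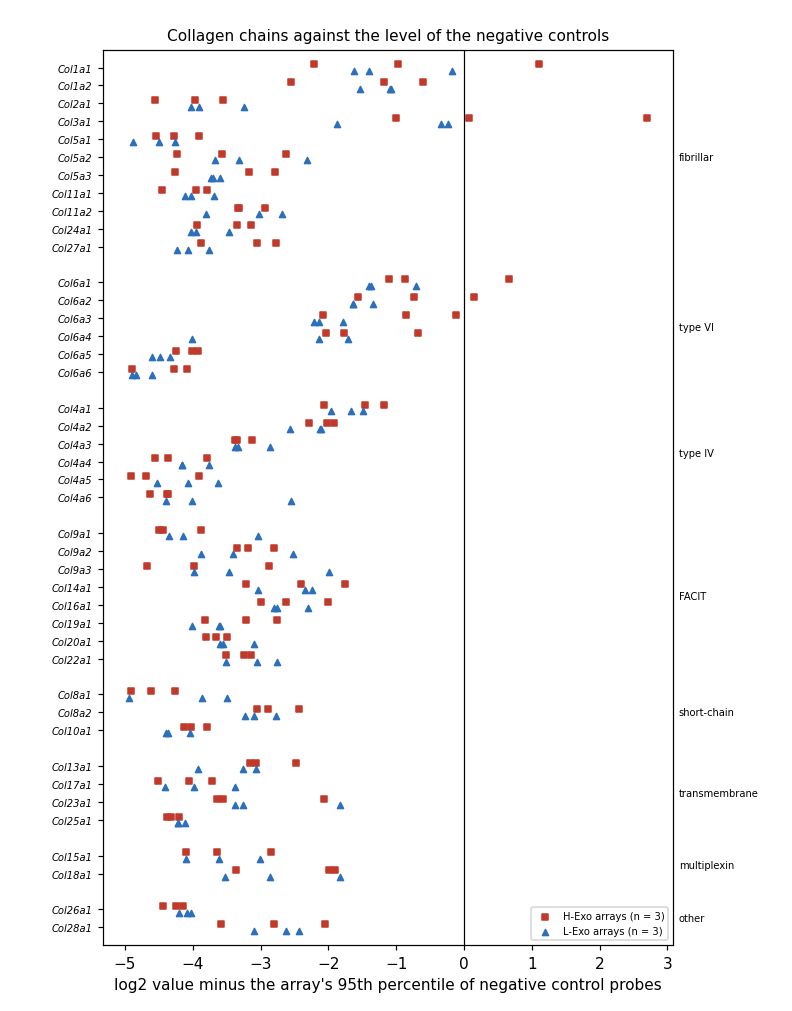
Each chain's log2 value minus the 95th percentile of the negative controls of the same array (vertical line at 0), for the 3 H-Exo arrays (squares) and the 3 L-Exo arrays (triangles), by collagen class. Points right of the line belong to 4 chains, Col1a1, Col3a1, Col6a1 and Col6a2, and all are H-Exo arrays.

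The same level was used to check the labelled tissue. Of 13 measured hepatocyte markers, 1 (Cps1) was above the controls on all 6 arrays and 9 on none, while 11 of 12 markers of the intestinal epithelium were above them on all 6. Of the hepatocyte markers 12 of 13 were lower in H-Exo, with a median difference of -0.73. At an unadjusted p under 0.05, 4 were lower, where 1.74% of all probe sets were. Groups did not overlap for 5, all lower in H-Exo, where 4.71% of all probe sets had no overlap in that direction. The log2 of the summed level of the 13 markers was 12.08 to 13.17 in H-Exo and 12.82 to 13.29 in L-Exo. Its part in the collagen values was not tested. Albumin (Alb) had log2 values of 5.14, 5.47 and 5.86 in H-Exo and 8.31, 8.26 and 10.72 in L-Exo. Villin (Vil1), a brush border protein, had values of 16.34, 15.85 and 17.00 in H-Exo and 14.86, 16.76 and 17.09 in L-Exo. The markers go against the label, so the collagen values describe these samples and are not read as those of liver. On each array 22.3% to 26.7% of probe sets were above the controls. L-Exo replicate 1 had the lowest mean correlation with the other arrays (0.951), followed by H-Exo replicate 1 (0.963), and the other 4 arrays had 0.971 to 0.975.

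Among the fibril-forming chains, Col3a1 stood out by its spread. It encodes the single chain of type III collagen, which forms fine reticular fibres. Its log2 values were 11.05, 8.04 and 7.41 in H-Exo and 7.95, 7.83 and 6.43 in L-Exo. H-Exo replicate 1 was far above the other 5 arrays, and the groups overlapped, as H-Exo replicate 3 lay below L-Exo replicates 1 and 2. The log2 difference, H-Exo minus L-Exo, was 1.43 with a standard error of 0.85 (adjusted p = 0.988 by limma) and did not pass the test. Since no L-Exo array was above the controls, only a bound could be computed on the group means, 1.53-fold higher in H-Exo. This bound sets the mean of the H-Exo arrays against the mean, over the L-Exo arrays, of the lowest value above the controls. The H-Exo mean includes replicate 3, itself below the controls, and the bound rests on replicate 1. It is not a minimum effect, as the difference did not pass the test. Without H-Exo replicate 1 the difference was 0.33 and no bound could be given, and without replicate 1 of both groups it was 0.60. In such bulk samples fewer cells of a type and less RNA per cell cannot be told apart.

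Col1a1 and Col1a2 encode the chains of type I collagen, the main protein of scar and tendon, which join in a fixed ratio. Col1a1 had log2 values of 9.44, 7.00 and 6.19 in H-Exo and 8.01, 6.54 and 6.91 in L-Exo. It was highest on replicate 1 in each group, and its H-Exo arrays lay on both sides of the L-Exo arrays. Its difference was 0.39 (standard error 0.75), and it was -0.56 without H-Exo replicate 1 and -0.13 without replicate 1 of both groups. Col1a2, named here as the partner chain after its values had been seen, had 7.74, 6.79 and 5.87 in H-Exo and 7.10, 7.09 and 6.78 in L-Exo. Its difference was -0.19 (standard error 0.45), and it was -0.66 without H-Exo replicate 1 and 0.27 without H-Exo replicate 3. The type I chains thus did not share a direction, and neither difference exceeded its standard error.

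Col27a1, a fibril-forming chain known best from cartilage, had the smallest unadjusted p of all chains (limma unadjusted p = 0.036, adjusted p = 0.988). Its log2 values were 5.28, 5.20 and 4.54 in H-Exo and 3.96, 4.09 and 4.55 in L-Exo. H-Exo replicate 3 lay just below L-Exo replicate 3, so the groups overlapped. The difference was 0.81 (standard error 0.33), and 0.67 to 1.04 with any 1 array left out. On every array this chain was below the level of the controls. Over the 11 fibril-forming chains the median difference was 0.30, with 6 chains above 0 and 5 below it and a range of -0.35 for Col5a2 to 1.43 for Col3a1. The highest of the 6 values was on H-Exo replicate 1 for 7 of the 11.

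Among classes of more than 2 chains, type VI was the one whose members all lay on the same side. All 6 had a difference above 0, with a median of 0.79, against 0.11 over the 42 chains and -0.01 over all probe sets tested. Col6a1, Col6a2 and Col6a3 encode the chains of the classical type VI trimer, the microfibril around muscle cells and fibroblasts. Col6a1 had log2 values of 9.00, 6.86 and 7.54 in H-Exo and 7.48, 6.80 and 6.91 in L-Exo. Its groups overlapped, since H-Exo replicate 2 lay within the L-Exo values, and the difference was 0.74 (standard error 0.51). It was 0.14 without H-Exo replicate 1 and reached 1.21 with H-Exo replicate 2 left out. Col6a2 had 8.49, 7.23 and 6.84 in H-Exo and 6.54, 6.82 and 6.67 in L-Exo. Every H-Exo array lay above every L-Exo array (two-sided exact permutation p = 0.1, the lowest that 6 arrays in this design can give), though H-Exo replicate 3 did so by little. Its difference was 0.84 (standard error 0.42), and it was 0.36 without H-Exo replicate 1 and 0.29 without replicate 1 of both groups.

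Col6a3, the largest of the classical chains and the source of the fragment endotrophin, had log2 values of 8.23, 7.12 and 6.33 in H-Exo and 5.97, 6.03 and 6.52 in L-Exo. H-Exo replicate 3 lay below L-Exo replicate 3. The difference was 1.05 (standard error 0.46, limma unadjusted p = 0.048, adjusted p = 0.988) and 0.55 to 1.50 with any 1 array left out. Col6a4, one of the chains that can take the place of Col6a3 in the trimer, had 7.66, 6.20 and 6.37 in H-Exo and 4.17, 6.02 and 6.60 in L-Exo. L-Exo replicate 1 was far below the rest, and the difference of 1.15 (standard error 0.63) was 0.43 without that array. Without replicate 1 of both groups it was -0.027. Col6a5, of the same kind as Col6a4, had 4.09, 4.04 and 4.39 in H-Exo and 3.59, 3.68 and 3.97 in L-Exo, below the median of the controls on all arrays. Its groups did not overlap and its difference was 0.43 (standard error 0.29). Col6a6 had the smallest difference of the class, 0.38 (standard error 0.31), with overlapping groups, and 0.17 without H-Exo replicate 1.

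The highest of the 6 values was on H-Exo replicate 1 for 5 of the 6 type VI chains. The median difference of the class was 0.42 without that array, 0.42 to 1.05 with any 1 array left out, and 0.32 without replicate 1 of both groups. It stayed above 0 in each of these settings, which were added after the values had been seen. None of the 6 chains passed the test over all probe sets, and the classes are small, so no more is read from the even direction than its count.

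**Figure D2:**
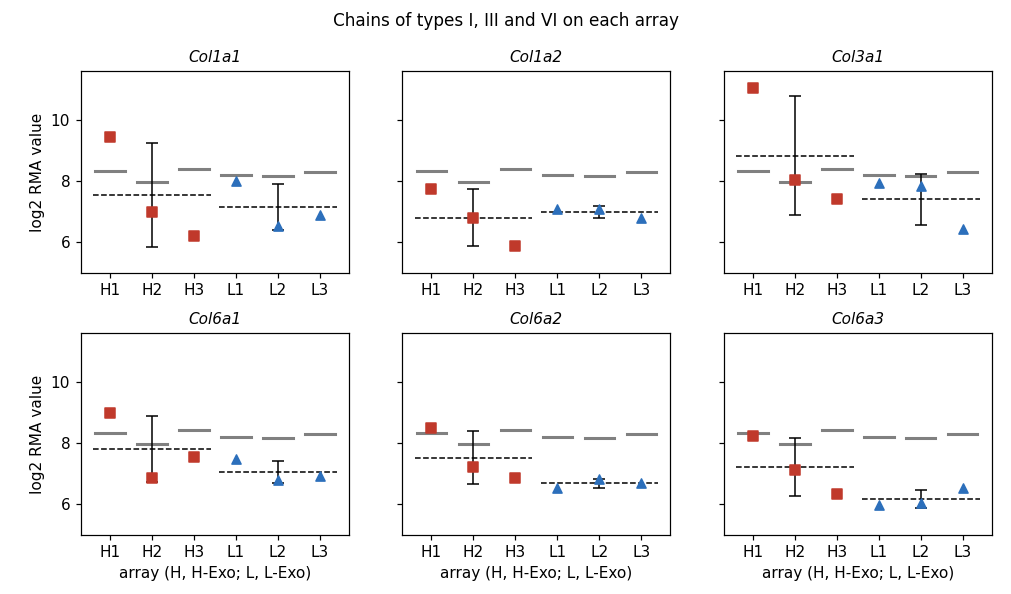
Deposited log2 values of 6 chains of types I, III and VI on each array, H-Exo replicates 1 to 3 (H1 to H3, squares) left of L-Exo replicates 1 to 3 (L1 to L3, triangles). Dashed lines are group means with SD bars (n = 3 arrays) and grey lines the 95th percentile of the negative controls, which Col3a1 exceeds on H1 (11.05) and H2 (8.04), Col1a1, Col6a1 and Col6a2 exceed on H1, and Col1a2 and Col6a3 on no array.

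The basement membrane chains of type IV showed no common direction. Of 6 chains, 2 were higher and 4 lower in H-Exo, with a median difference of -0.13, and none was above the controls on any array. Col4a1 and Col4a2, which form the trimer found in nearly every basement membrane and are named here after their values had been seen, differed by 0.17 (standard error 0.32) and 0.22 (standard error 0.29). Col4a5 and Col4a6 lie head to head on the X chromosome and were the chains of this class with the lowest p. Col4a6 had log2 values of 3.98, 3.59 and 3.77 in H-Exo and 4.17, 5.62 and 3.92 in L-Exo. L-Exo replicate 2 alone was high, and the difference of -0.79 (standard error 0.44) was -0.27 without it. Col4a5 had 3.65, 4.06 and 3.50 in H-Exo and 4.56, 4.08 and 3.78 in L-Exo, with a difference of -0.40 (standard error 0.32) that was -0.20 without L-Exo replicate 1. Its groups overlapped too.

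Of the 8 FACIT chains 4 were higher and 4 lower, with a median difference of -0.03. Col9a1 and Col9a3 encode chains of type IX collagen, a partner of cartilage fibrils, and had 2 of the 5 lowest p-values among chains lower in H-Exo. Col9a3 had log2 values of 3.67, 5.10 and 4.43 in H-Exo and 6.19, 4.69 and 4.33 in L-Exo, and Col9a1 had 3.85, 4.10 and 3.98 in H-Exo and 5.15, 4.02 and 3.95 in L-Exo. In both, L-Exo replicate 1 was the high array. Their differences of -0.67 (standard error 0.53) and -0.40 (standard error 0.37) were 0.25 and 0.053 without replicate 1 of both groups. Col19a1, named after its values had been seen as the last of 3 chains without overlap, had 5.58, 4.75 and 4.59 in H-Exo and 4.58, 4.56 and 4.30 in L-Exo. Its difference was 0.49 (standard error 0.34) and 0.19 without H-Exo replicate 1. H-Exo replicate 3 exceeded L-Exo replicate 1 by less than the spread within either group.

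The remaining classes hold few genes. Col8a1, a short-chain collagen of vessel walls and the Descemet membrane, had log2 values of 4.08, 3.35 and 3.51 in H-Exo and 4.69, 4.29 and 3.36 in L-Exo. Its groups overlapped, and the difference was -0.47 (standard error 0.40). With L-Exo replicate 1 left out it was -0.19, and with L-Exo replicate 3 left out -0.85. Over the 3 short-chain collagens the median difference was 0.26, over the 4 transmembrane collagens -0.12, and over the 2 multiplexins, Col15a1 and Col18a1, 0.21. Differences in the transmembrane class reached from -0.24 for Col23a1 to 0.55 for Col13a1. Col26a1 and Col28a1 had differences of -0.14 and -0.07. None of these 11 chains was above the controls on any array.

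No chain passed the test of H-Exo against L-Exo over all 22206 probe sets (limma, Benjamini-Hochberg adjusted p under 0.05), and 0% of all probe sets did. The lowest adjusted p among the chains was 0.988. At an unadjusted p under 0.05, 2 chains were higher, Col27a1 and Col6a3, where 2.32% of probe sets were called, and 0 were lower, where 1.74% were. The methods' t-test, run on the same values, called 0 chains at an unadjusted p under 0.05. Groups did not overlap for 3 chains higher in H-Exo (4.9% of all probe sets) and for 0 lower (4.71%), where 9.61% of all probe sets had no overlap in either direction. In H-Exo 23 of the 42 chains were higher and 19 lower, and 48.9% of all probe sets were higher. With 42 chains, counts of 2 and 3 lie near these shares of the whole array. The spread between arrays of 1 group was also alike, with a median SD of 0.45 over the chains and 0.43 over all probe sets.

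**Figure D3:**
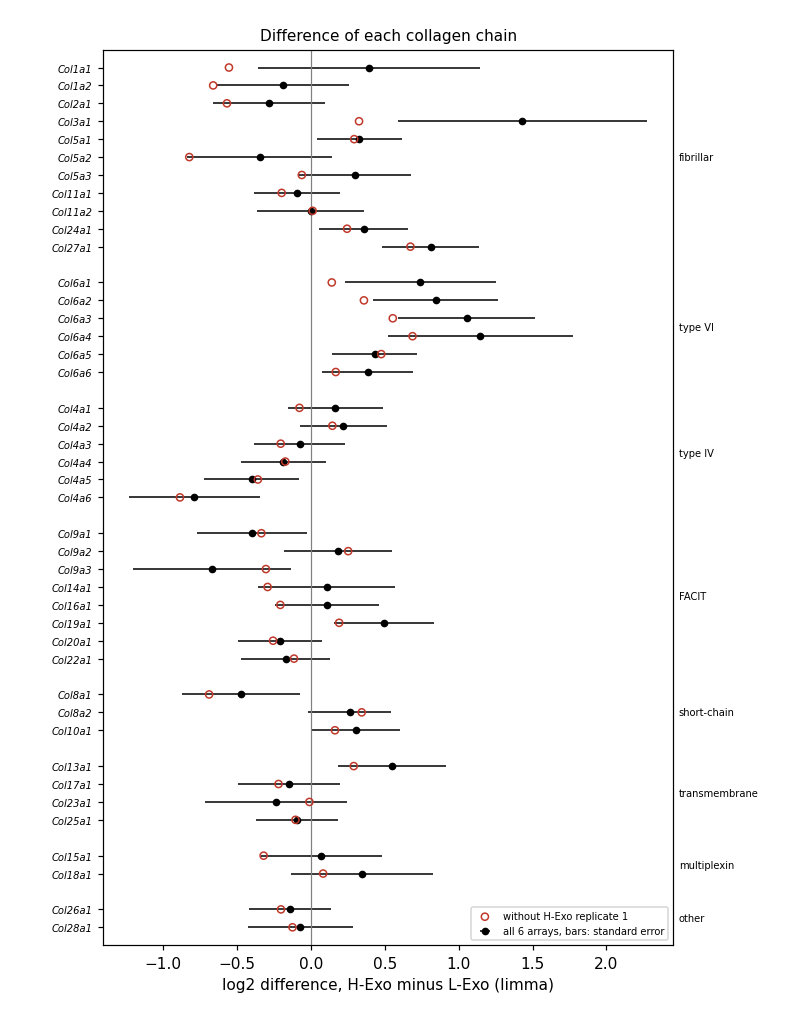
Log2 difference, H-Exo minus L-Exo, of each chain from limma with all 6 arrays (filled points, bars are standard errors) and without H-Exo replicate 1 (open circles). Type VI chains lie right of 0 in both settings, while Col3a1 moves to 0.33 and Col1a1 to -0.56 when that array is left out.

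Many type VI and fibril-forming chains were highest on the same H-Exo array. For 20 of 42 chains the highest of the 6 values was on H-Exo replicate 1, as it was for 18.9% of all probe sets. Within H-Exo alone, replicate 1 was the highest for 30 chains, against 37.6% of all probe sets, and the chains exceeded the mean of the other H-Exo arrays there by a median of 0.40. This excess was 1.42 for type VI and 0.86 for the fibril-forming chains, against 0.01 over all probe sets. It was 0.26 for type IV, 0.12 for the transmembrane chains and -0.01 for FACIT. Within L-Exo, replicate 1 was the highest for 23 chains, against 40.9% of all probe sets, with a median excess of 0.19 for all chains, 0.46 for FACIT, 0.33 for the fibril-forming chains and -0.22 for type VI. Over all chains the median log2 value was 5.12, 4.78 and 4.60 in H-Exo and 4.95, 4.83 and 4.71 in L-Exo. Replicate 1 was the highest in both groups. Without H-Exo replicate 1, 18 chains were higher and 24 lower in H-Exo, with a median difference of -0.09, and without L-Exo replicate 1, 29 were higher and 13 lower, with a median of 0.14.

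Markers of smooth muscle, a collagen-producing cell of the gut wall, moved over the arrays as well. Of 9 markers, 8 were above the controls on all 6 arrays and 9 on at least 1. In H-Exo 8 of the 9 were highest on replicate 1 and in L-Exo all 9 were, with median excesses of 1.85 and 1.73. Actg2, the enteric smooth muscle actin, had log2 values of 19.77, 16.57 and 15.15 in H-Exo and 19.16, 16.92 and 16.59 in L-Exo. The log2 of the summed marker level was 18.17 to 21.20 in H-Exo and 18.74 to 20.79 in L-Exo. The median of the type VI chains was high on H-Exo replicate 1 and not on L-Exo replicate 1, and that of the smooth muscle markers was high on both. Of the 11 fibril-forming chains, 10 were highest on replicate 1 within H-Exo and 7 within L-Exo. Of the 6 type VI chains 2, Col6a1 and Col6a6, were highest on replicate 1 within L-Exo as well. The part of smooth muscle in the collagen values was not tested.

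Fibroblast markers did not follow H-Exo replicate 1. Of 9 measured markers 1, Dpt, which binds collagen fibrils, was above the controls on all 6 arrays, and 1 of the 9 was highest on replicate 1 within H-Exo. Dpt had log2 values of 10.30, 11.28 and 10.79 in H-Exo and 13.24, 11.48 and 10.45 in L-Exo. The median difference of the list was -0.48, with 1 higher and 8 lower in H-Exo, and the log2 of the summed level was 10.92 to 11.75 in H-Exo and 11.38 to 13.37 in L-Exo. Its part in the collagen values was not tested. Of 8 markers of hepatic stellate cells, the main collagen producers of the injured liver, 2 (Rgs5 and Vipr1) were above the controls on all 6 arrays, and of 9 endothelial markers none was on any array. Of 8 lymphocyte markers none was above the controls on all 6 arrays, and 6 were above them on no array. All 8 had a difference above 0, with a median of 1.34. At an unadjusted p under 0.05, 6 were higher, where 2.32% of all probe sets were. Groups did not overlap for 5 of the 8 markers, all higher in H-Exo, where 4.9% of all probe sets had no overlap in that direction. The log2 of the summed level of the 8 lymphocyte markers was 8.82 to 10.83 in H-Exo and 7.99 to 8.30 in L-Exo. Its part in the collagen values was not tested.

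**Figure D4:**
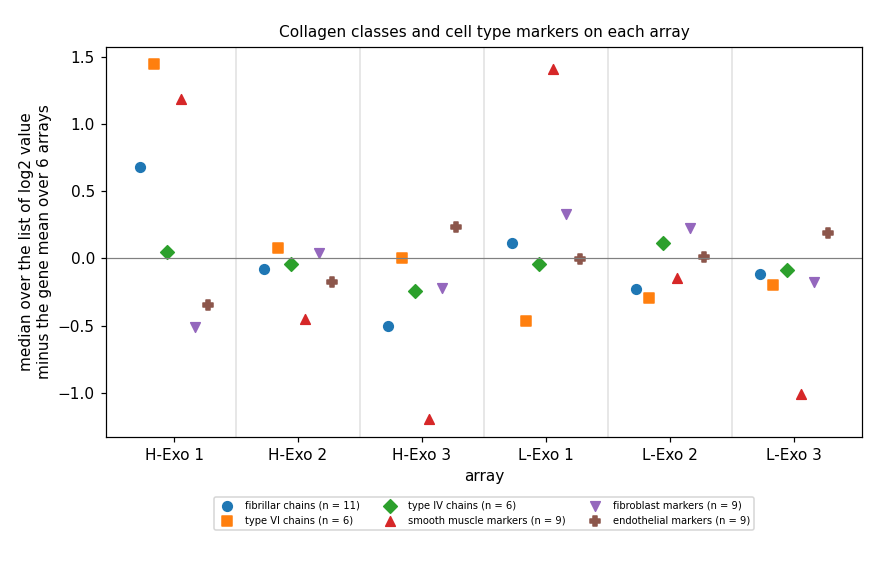
Median, over the genes of a list, of the log2 value minus the gene's own mean over the 6 arrays, for 3 collagen classes and 3 marker lists on each array, H-Exo left of L-Exo. The type VI median is highest on H-Exo replicate 1 (1.44) and lowest on L-Exo replicate 1 (-0.47). On these 2 arrays fibril-forming chains are at 0.68 and 0.12, smooth muscle markers at 1.19 and 1.41, and fibroblast markers at -0.51 and 0.33.

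Genes that make, bind and sense collagen were examined as lists. Of 19 measured genes that fold and modify chains in the endoplasmic reticulum, 9 were higher and 10 lower in H-Exo, with a median difference of -0.18 and none at an unadjusted p under 0.05. P4hb, the β subunit of prolyl 4-hydroxylase, Ppib, a prolyl isomerase, and Mia3, which loads procollagen into transport carriers, were above the controls on all 6 arrays. Their differences were -0.26 (standard error 0.40), -0.18 (standard error 0.35) and -0.28 (standard error 0.29). P3h1, a prolyl 3-hydroxylase, had the lowest difference in this list, -0.59 (standard error 0.32), and P4ha1, a catalytic subunit of prolyl 4-hydroxylase, had 0.51 (standard error 0.31). P3h1 and P4ha1 were below the controls on all arrays. Serpinh1, the collagen chaperone HSP47, was below the controls on all arrays, with -0.36 (standard error 0.34), and is named after its values had been seen.

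Of 11 genes that process and cross-link collagen none was above the controls on any array, with 4 higher, 7 lower and a median of -0.18. Loxl1, a lysyl oxidase, had log2 values of 4.66, 4.43 and 4.77 in H-Exo and 4.96, 5.08 and 5.36 in L-Exo. The groups did not overlap, and the difference was -0.51 (standard error 0.29). Of 9 collagen receptors 3 were higher and 6 lower, with a median of -0.10. Itgb1, the β1 integrin subunit, and Itga2, its collagen-binding partner, were above the controls on all 6 arrays, with differences of -0.28 (standard error 0.35) and -0.35 (standard error 0.45). At an unadjusted p under 0.05 the receptor kinase Ddr1 was higher (0.88, standard error 0.38), as was Lair1, an inhibitory receptor of immune cells (0.74, standard error 0.30). Gp6, the collagen receptor of platelets, was lower (-1.01, standard error 0.40, and -0.60 without L-Exo replicate 1). All 3 lay below the controls on all arrays. Of all probe sets, 2.32% were higher and 1.74% lower at that unadjusted p. The lowest adjusted p among the 9 receptors was 0.988 (limma).

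Of 19 measured matrix proteins that bind collagen, 11 were higher and 8 lower, with a median of 0.09, and Sparc, Lum, Dcn and Postn were above the controls on all 6 arrays. Fn1 encodes fibronectin, on which collagen fibrils are assembled, and had log2 values of 11.95, 8.82 and 8.76 in H-Exo and 8.02, 8.22 and 7.99 in L-Exo. H-Exo replicate 1 was again far above the rest, and the groups did not overlap. Its difference was 1.76 (standard error 0.74, limma unadjusted p = 0.041, adjusted p = 0.988), and it was 0.71 without that array. Fn1 was below the controls on L-Exo replicates 1 and 3. Nid1, which links type IV collagen to laminin, had 8.02, 6.75 and 6.69 in H-Exo and 6.41, 5.78 and 6.28 in L-Exo, without overlap, and a difference of 0.99 (standard error 0.41) that was 0.56 without H-Exo replicate 1. Nid1 lay below the controls on all 6 arrays. Dcn, the proteoglycan decorin that coats fibrils, ran the other way, with 13.40, 14.72 and 14.76 in H-Exo and 17.38, 15.29 and 13.39 in L-Exo. L-Exo replicate 1 was the highest array of Dcn, its groups overlapped, and the difference was -1.06 (standard error 0.85). It was -0.050 without that array and 0.39 without replicate 1 of both groups.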

How the data were processed

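Members and gene lists were chosen with earlier results of these data known. The study's methods describe Affymetrix arrays run from 100 ng of RNA each. The labels name an Affymetrix protocol with 90 ng and, beside it, an Ion AmpliSeq transcriptome kit, which is a sequencing kit, though the deposited rows are array probe sets and control probes. The authors processed the arrays in Transcriptome Analysis Console 4.0 with RMA (background correction, normalization between arrays, 1 value per probe set), and the deposited values are log2. RMA draws arrays to a common distribution, so a shift shared by most genes cannot be seen. The build behind the probe annotation was not given in the sources used here, and no coordinate is taken from it.

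The table holds 28846 rows, of which 5222 are negative controls and 1418 other controls. The remaining 22206 probe sets were fitted without further normalization in limma 3.58.1 (R 4.3.3) with lmFit and eBayes, group as the only term and Benjamini-Hochberg adjustment over all of them. Genes were named through the platform table (19572 probe sets with 1 symbol). Named chains are those above the controls on at least 1 array, the 5 of lowest p in each direction and the 3 with the widest spread within groups; in other lists, up to 4 by lowest p and up to 4 by highest mean. Alternatives were other eBayes settings, a filter on dim probe sets, quantile and median scaling, array weights, a replicate block, other control percentiles, Student's t-test and leaving out arrays. With 3 arrays per group, precision is limited.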

Additional observations from a re-analysis of the deposited data

How the results depend on the processing

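The count of chains past the adjusted threshold was 0 under every alternative run, and the number at an unadjusted p under 0.05, 2 in the reported fit, was 0 to 4 when 1 array was left out. Over all probe sets 0 passed, while array weights gave 10 (3 chains at an unadjusted p under 0.05, lowest adjusted p of a chain 0.321). Leaving out replicate 1 of both groups gave 1, leaving out 1 array gave 0 to 1, and Student's t-test called 921 unadjusted at 0.05 and 0 once adjusted. Deviations of same-numbered arrays correlated at 0.219, 0.0429 and 0.182, and those of other pairs at -0.216 to 0.0849. H-Exo replicate 2 correlated best with L-Exo replicate 3 (0.0849). With 3 arrays per group these values cannot settle whether the replicate numbers pair the arrays. With replicate number as a block 0 chains and 0 probe sets passed, with a median difference over the chains of 0.11. At an unadjusted p under 0.05 that fit called 1 chain, Col3a1 (limma unadjusted p = 0.026), while Col27a1 (0.053) and Col6a3 (0.051) missed it. With the median of the negative controls as the level, 9 chains were above it on all 6 arrays. Other eBayes settings, the dim filter, the replicate block, averaging a gene's probe sets and the t-test leave each chain's difference unchanged. Values under these settings could not reverse. Of 188 values of the 12 chains named by rule under all alternatives, these included, 183 kept their direction. The other 5 reversed, namely Col1a1 at -0.56 without H-Exo replicate 1 and, without replicate 1 of both groups, Col1a1 at -0.13, Col6a4 at -0.027, Col9a1 at 0.053 and Col9a3 at 0.25. With 1 array left out Col1a1 was at -0.56 to 1.07. The cause was not tested. The median over all chains was -0.09 to 0.23 with 1 array left out. Of other genes, Dcn was at -2.04 to -0.050 with 1 array left out and at 0.39 without replicate 1 of both groups, and Col1a2 at -0.66 to 0.27 with 1 array left out. The filter on the dimmest 30% of probe sets kept 28 of the 42 chains. Signal over background limits all 42, as none is above the controls on any L-Exo array.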

Other observations

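Genes that degrade collagen had a median difference of 0.01 over 12 measured, with 6 above 0 and 6 below it and none at an unadjusted p under 0.05. Timp2, an inhibitor of matrix metalloproteinases, was the only one above the negative controls on all 6 arrays, with log2 values of 10.07, 10.34 and 10.13 in H-Exo and 11.22, 9.86 and 9.32 in L-Exo. Timp3, an inhibitor bound to the matrix, had a difference of -0.63 (standard error 0.36), and the gelatinase Mmp2 had 0.54 (standard error 0.38), which was 0.16 without L-Exo replicate 1.

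Of 10 measured genes of the TGF-beta pathway, which drives collagen synthesis in fibroblasts and stellate cells, 7 were higher and 3 lower in H-Exo, with a median difference of 0.33 and none at an unadjusted p under 0.05. Tgfb1, the ligand, had log2 values of 8.11, 7.24 and 6.11 in H-Exo and 5.35, 6.38 and 6.43 in L-Exo. It was highest on H-Exo replicate 1 and lowest on L-Exo replicate 1, and its difference of 1.10 (standard error 0.52, adjusted p = 0.988 by limma) was 0.62 without H-Exo replicate 1. Without replicate 1 of both groups the difference was 0.27. Tgfb1 lay below the controls on all 6 arrays. The related ligands Tgfb2 and Tgfb3 were at -0.69 (standard error 0.33) and -0.71 (standard error 0.38). Smad4, the shared mediator, was above the controls on all 6 arrays, with 11.32, 11.41 and 11.64 in H-Exo and 11.18, 11.23 and 11.31 in L-Exo.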
